A study of Danio rerio with 7 samples.

Results

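The mitochondrially encoded mRNAs of the respiratory chain are described here in PAC2, a zebrafish cell line of embryonic origin. They are the genes named MT-CO1, MT-CO2, MT-CO3, MT-ATP6, MT-CYB, MT-ND1, MT-ND2, MT-ND4, MT-ND5 and MT-ND6 (written in lower case for zebrafish below), found by name, and all 10 were found among the 17570 genes of the matrix. The matrix held 13 protein-coding genes of the mitochondrial DNA, and the other 3 (mt-nd3, mt-nd4l and mt-atp8) are given where they add to the picture. Values are given per gene, and whether neighbouring genes share an mRNA was not examined. RNA was sequenced from untreated wild-type cells 14 days after seeding, in the stationary phase (replicates 1, 2 and 4), and 8 days after seeding, in the exponential phase (replicates 1 to 4). The medium was exchanged once, the day before the exponential samples were taken, and each replicate number stands for another passage of the line with its own starting day. Replicate 3 of day 14 was not sequenced, as the study lost that sample before sequencing. Both days come from the same single cell line, grown in plates, and no other condition is analysed here.

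Mitochondrial DNA is a small circle that animal cells keep in many copies outside the nucleus. It encodes core subunits of complexes I, III, IV and V, which move electrons from NADH to oxygen, pump protons and make ATP, while all other subunits are made from nuclear genes and imported. In vertebrates the genome is read as long transcripts that cover many genes, and these are cut at the tRNAs that lie between most of them. The single mRNAs therefore start out from shared precursors, and their later levels also depend on how long each of them lasts. Only mt-nd6 is read from the other strand than the remaining mRNAs.

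The libraries held 19426346 to 33414678 estimated counts on day 14 and 11252454 to 24561439 on day 8, and replicate 1 of day 8 was the shallowest. The 10 mRNAs had between 2790 and 241750 counts each in every library, so counting error is small beside the spread between libraries. All 70 of their values in the matrix were whole numbers (within 1e-06), whereas Kallisto gives fractions where it divides reads among transcripts. The marker lists used here overlap those of the study only in part. The study names vim, cdh2, col1a1b and fn1a as fibroblast markers, and cdh1, sdc2 and tjp2b among its epithelial markers. It detected all of its epithelial markers as transcript and as protein. The study proposes that the fibroblast-like classification of the line may have to be reconsidered. Markers were matched by name, so a marker without a match is not shown to be absent from the cells. The study detected fn1a, for example, which was not matched here. Of the mesenchymal or fibroblast markers used here, 7 of 10 were matched. Of these, 6 were above 1 CPM (the counts of a gene per 1000000 counts of the scaled library). The exception was vim, whose expression the study calls negligible. The sum was 5230 to 6929 CPM on day 14 and 2828 to 5339 CPM on day 8. The highest of these genes were col1a2 and col1a1a. Of the epithelial markers, 4 of 6 were matched, with 238 to 267 CPM on day 14 and 371 to 425 CPM on day 8. Muscle markers (3 of 5 matched) summed to at most 35.0 CPM in any library. Of the neural markers only gfap was matched (1 of 4), with at most 1.54 CPM. Of the blood and endothelial markers only kdrl was matched (1 of 6), with at most 6.21 CPM. By the edgeR rule given below, 4 mesenchymal markers were called higher and 0 lower, and 2 epithelial markers lower and 0 higher. Further, 1 muscle marker was called higher and 1 blood and endothelial marker lower. Of all genes, 12.0% were called higher and 13.3% lower. The part of these markers in the differences below was not tested.

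The share of all counts that came from the 10 mRNAs was lower on day 14. It was 1.76%, 1.89% and 1.91% in replicates 1, 2 and 4 of day 14, against 3.41%, 2.97%, 2.39% and 2.42% in replicates 1 to 4 of day 8. The 3 day 14 libraries lay close together and all of them were below the lowest day 8 library. The mean share was 1.86% ± 0.0811 on day 14 (SD, n = 3) and 2.80% ± 0.487 on day 8 (SD, n = 4). Day 14 thus reached 66.4% of the day 8 mean. In summed CPM, with the library scaling used for the single genes below, day 14 reached 75.7% of the day 8 mean. The 95% Wilson intervals of the shares reach at most 0.0106 percentage points to either side, which covers counting error only. No p is given for this sum, since it is a score over chosen genes. The share is relative to the other RNA of a library, and RNA per cell was not measured. The libraries were poly(A)-selected, and how well these mRNAs were captured on each day was not measured either. In bulk RNA, more of that other RNA, fewer mitochondria in a cell, fewer copies of their DNA and less RNA from each copy cannot be told apart.

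Within a replicate number the share was also lower on day 14, but by very different amounts. In replicate 1, day 14 reached 51.7% of the share of day 8, in replicate 2 it was 63.6% and in replicate 4 it was 79.1%. The shares spread more on day 8 than on day 14, and the highest of day 8 belonged to the shallowest library, replicate 1. Without that library the difference between the means was -0.74 percentage points, against -0.94 with it.

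**Figure D1:**
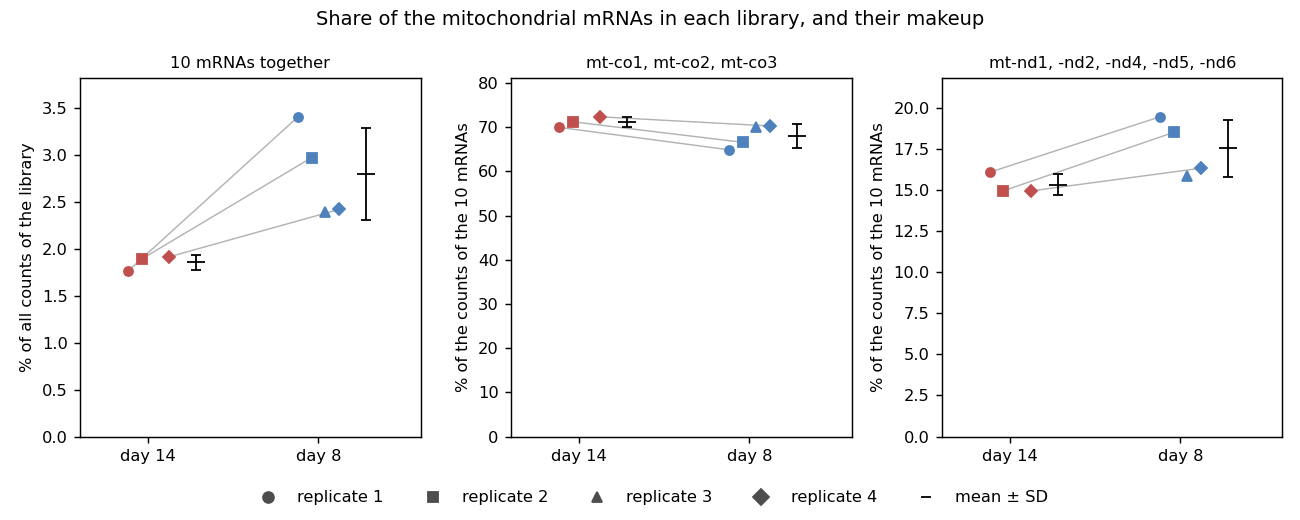
Left: percent of all counts of a library that came from the 10 mitochondrial mRNAs. Middle and right: percent of the counts of these 10 mRNAs that came from the cytochrome c oxidase mRNAs and from the NADH dehydrogenase mRNAs. Each point is a library, lines join the libraries with the same replicate number, and bars give the mean and SD. The day 14 shares on the left (1.76% to 1.91%) lie below all day 8 shares (2.39% to 3.41%), while in the other panels the days overlap.

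Counts were scaled with edgeR's TMM method and each gene was tested between the days with edgeR's quasi-likelihood test, with Benjamini-Hochberg adjustment over all 17570 genes. A gene was called at an adjusted p below 0.05. By this rule 3 of the 10 mRNAs fell on day 14 and 0 rose, while 13.3% of all genes were called lower and 12.0% higher. The 3 were mt-nd2, mt-nd4 and mt-nd6, which all encode subunits of complex I. All 10 log2 differences were negative, with a median of -0.55, while the median over all genes was 0.0032. In 8 of the 10 mRNAs every day 14 library was below every day 8 library, which was so for 17.7% of all genes. For mt-nd5 this rests on less than 1 count, with 597.641 CPM on day 14 against 597.647 CPM on day 8. Comparing libraries of equal replicate number, 9 of the 10 were lower on day 14 in all 3 pairs, as were 31.6% of all genes. Further, 8 of the 10 were lower at an unadjusted p under 0.05, as were 19.3% of all genes. The 10 mRNAs largely share precursors and were measured in the same libraries. They are thus not 10 independent cases, and the shares of all genes are given without a test between the sets.

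The call depended on whether the replicate number was taken into account. The labels give the run number, and the study states that its replicates were different passages begun on different days. The libraries of a number were therefore taken as a pair. The counts bear this out only in part. Across genes, deviations from the mean of each day correlated by 0.324, -0.132 and 0.407 within replicates 1, 2 and 4. With the replicate number as a block in edgeR, 8 of the 10 mRNAs were called lower and 0 higher, while 18.9% of all genes were called lower and 17.7% higher in that fit. Replicate 3 of day 8 has no partner on day 14, so the block fit took the difference between the days from the other libraries. A call gained with the block can therefore come from the pairing or from setting that library aside. DESeq2, without the block, also called 8 lower and 0 higher (15.4% and 13.3% of all genes). Without TMM scaling 8 were again called lower and 0 higher (18.5% and 6.93% of all genes). The 8 genes were the same in all 3 of these fits, and the 2 left out were mt-co1 and mt-co3. After leaving out replicate 1, 2 or 4 of day 14, edgeR called 0 of the 10, with 3, 7 and 5 genes at an unadjusted p under 0.05. The median log2 difference of the 10 was then -0.51, -0.62 and -0.52, and the share of all genes called lower was 11.0%, 8.18% and 7.75%. Without replicates 1, 2, 3 and 4 of day 8 the count was 2, 1, 5 and 4, with 14.5%, 9.75%, 13.3% and 11.2% of all genes called lower.

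Complex I takes electrons from NADH, and its mitochondrially encoded subunits form the part that lies in the membrane and pumps protons. The mRNA of mt-nd6 (ENSDARG00000063922) stood at 150, 163 and 160 CPM in replicates 1, 2 and 4 of day 14, against 365, 262, 221 and 194 CPM in replicates 1 to 4 of day 8. The day 14 values hardly differed among themselves, and the day 8 values spread over nearly the whole range above them. Between the days, mt-nd6 had a log2 difference of -0.73 with a standard error of 0.21 (adjusted p = 0.0215), which places day 14 at 60.4% of day 8. As mt-nd6 lies on the other strand, reads of the opposite transcript could be counted for it unless the strand was used. The kit marks strand, but whether the pseudo-alignment used it is not given in the sources used here.

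The mRNA of mt-nd2 (ENSDARG00000063899) stood at 523, 589 and 548 CPM on day 14, against 1046, 900, 799 and 688 CPM on day 8. The days did not overlap, and the log2 difference, with its standard error, was -0.63 ± 0.19 at an adjusted p of 0.0270. For mt-nd4 (ENSDARG00000063917) the values were 729, 810 and 838 CPM on day 14, against 1574, 1326, 1020 and 985 CPM on day 8. Again the days did not overlap, and mt-nd4 differed by -0.63 ± 0.21 (log2 and standard error) at an adjusted p of 0.0429. Both genes fell in all 3 pairs, most in replicate 1 and least in replicate 4.

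In mt-nd5 (ENSDARG00000063921), one of the antiporter-like subunits of the complex, the day 14 libraries had 532, 562 and 598 CPM, against 1233, 955, 598 and 750 CPM in the day 8 libraries. The days met at replicate 3 of day 8, with 597.641 CPM in the highest day 14 library and 597.647 CPM in that day 8 library. The log2 difference of -0.65 was close to that of mt-nd4 and was not called (standard error 0.23, adjusted p = 0.0612), but it was called with the block (adjusted p = 0.00198). The gene was also called without the block once replicate 3 of day 8 was left out (edgeR, adjusted p = 0.0118). The mRNA of mt-nd1 (ENSDARG00000063895) had 908, 1080 and 965 CPM on day 14, against 1547, 1550, 1422 and 1182 CPM on day 8. At -0.53 on the log2 scale it had an adjusted p of 0.0527 without the block, which is no call, and 0.00653 with it.

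The small complex I genes outside the 10 also had negative log2 differences. The mRNA of mt-nd3 fell, with 313 ± 41.8 CPM on day 14 (SD, n = 3), against 448 ± 47.9 CPM on day 8 (SD, n = 4), and a log2 difference of -0.52 (edgeR, adjusted p = 0.0382). For mt-nd4l, which lies directly before mt-nd4, the log2 difference was -0.54 and not called (adjusted p = 0.0670), and the days overlapped. With the block it was called (adjusted p = 0.0127).

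Cytochrome b, the product of mt-cyb (ENSDARG00000063924), is the only mitochondrially encoded subunit of complex III, which passes electrons from ubiquinol to cytochrome c. Its mRNA had 1172, 1482 and 1355 CPM on day 14, against 2093, 1934, 1737 and 1609 CPM on day 8. The days did not overlap, and the log2 difference was -0.46 (standard error 0.19). It was not called without the block (adjusted p = 0.0954) and was called with it (adjusted p = 0.0144).

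Complex IV, cytochrome c oxidase, reduces oxygen to water, and mt-co1, mt-co2 and mt-co3 encode its core. The mRNA of mt-co1 (ENSDARG00000063905), the subunit that holds the oxygen-binding site, had 6386, 6987 and 7650 CPM on day 14, against 10525, 8931, 7274 and 7427 CPM on day 8. Here the days overlapped, and in replicate 4 the day 14 library was slightly above its day 8 library. The log2 difference of -0.29 (standard error 0.23) was not called without the block (adjusted p = 0.395) or with it (adjusted p = 0.114). For mt-co3 (ENSDARG00000063912) the values were 3400, 4759 and 4245 CPM on day 14, against 4400, 4970, 6093 and 4744 CPM on day 8. The log2 difference was again -0.29 (standard error 0.22), not called without the block (adjusted p = 0.369) or with it (adjusted p = 0.298).

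The mRNA of mt-co2 (ENSDARG00000063908), the subunit that receives electrons from cytochrome c, did not overlap between the days. It had 2570, 3496 and 3143 CPM on day 14, against 4287, 4052, 4554 and 4172 CPM on day 8. The day 8 libraries were nearly level and all above the day 14 libraries. Its log2 difference was -0.47 (standard error 0.20), with an adjusted p of 0.107 without the block and 0.0238 with it.

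ATP synthase, complex V, lets protons return through a channel that the product of mt-atp6 helps to form. The mRNA of mt-atp6 (ENSDARG00000063911) had 1292, 1475 and 1289 CPM on day 14, against 2545, 2090, 1853 and 1508 CPM on day 8. All day 14 libraries were below the day 8 libraries, although replicate 2 of day 14 came close to replicate 4 of day 8. The log2 difference was -0.56 (standard error 0.21), with an adjusted p of 0.0728 without the block and 0.00846 with it. The neighbouring mt-atp8 had a log2 difference of -0.50 and overlapped between the days (adjusted p = 0.138), but it was called with the block (adjusted p = 4.22e-04).

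**Figure D2:**
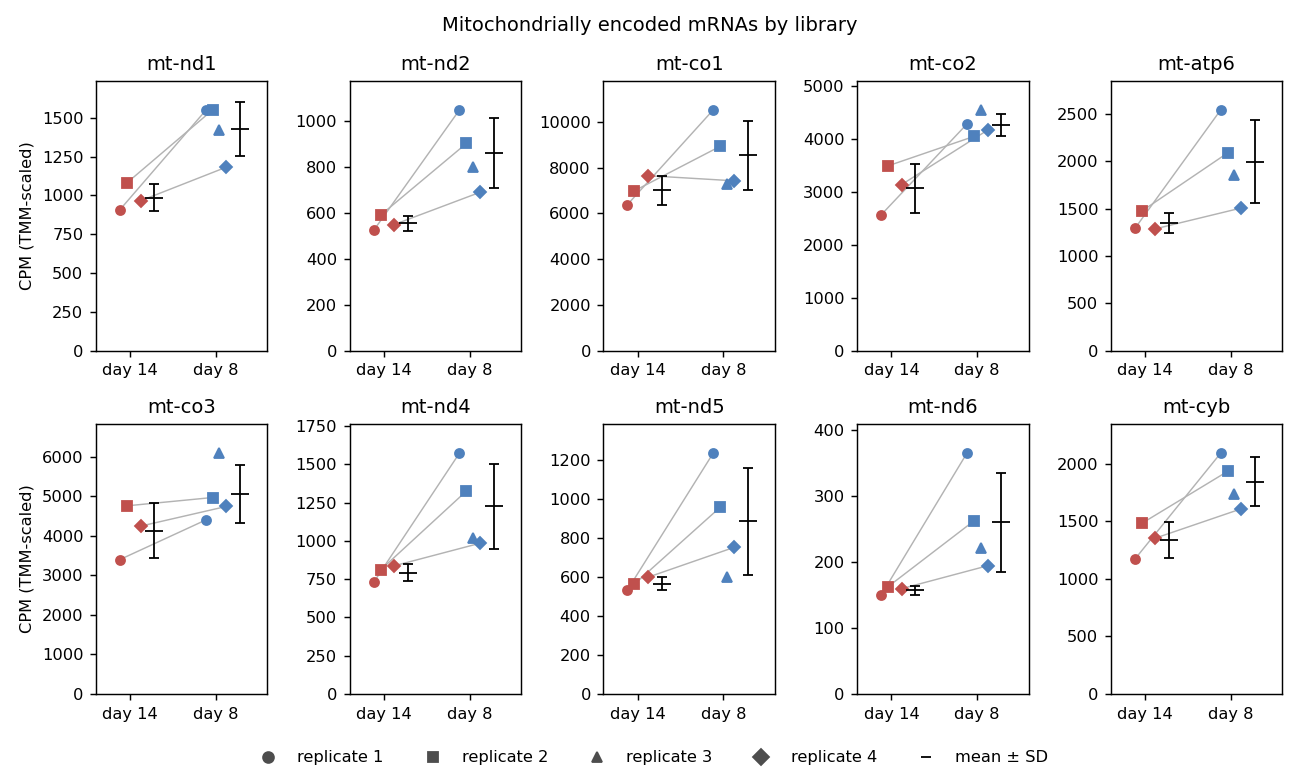
TMM-scaled CPM of the 10 mitochondrial mRNAs, in the order of their genes on the mitochondrial DNA. Each point is a library, lines join libraries with the same replicate number, and bars give the mean and SD. The days overlap in mt-co1 and mt-co3 and meet in mt-nd5, and in the other genes all day 14 libraries lie below the day 8 libraries.

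The differences are next given along the circle. In the RefSeq annotation of another assembly (GRCz12tu), which was used for the order only, the 13 genes follow each other as nd1, nd2, co1, co2, atp8, atp6, co3, nd3, nd4l, nd4, nd5, nd6 and cyb. The log2 difference was -0.63 in mt-nd2 and -0.29 in the next gene, mt-co1. It was -0.56 in mt-atp6 and -0.29 in mt-co3, with no other protein-coding gene between them. After mt-co3 it was -0.52 in mt-nd3, -0.54 in mt-nd4l, -0.63 in mt-nd4, -0.65 in mt-nd5 and -0.73 in mt-nd6. The order of the last 2 was turned with the block, where mt-nd5 was at -0.77 and mt-nd6 at -0.75. The standard errors of the single genes were 0.17 to 0.23, and no test was made between genes.

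**Figure D3:**
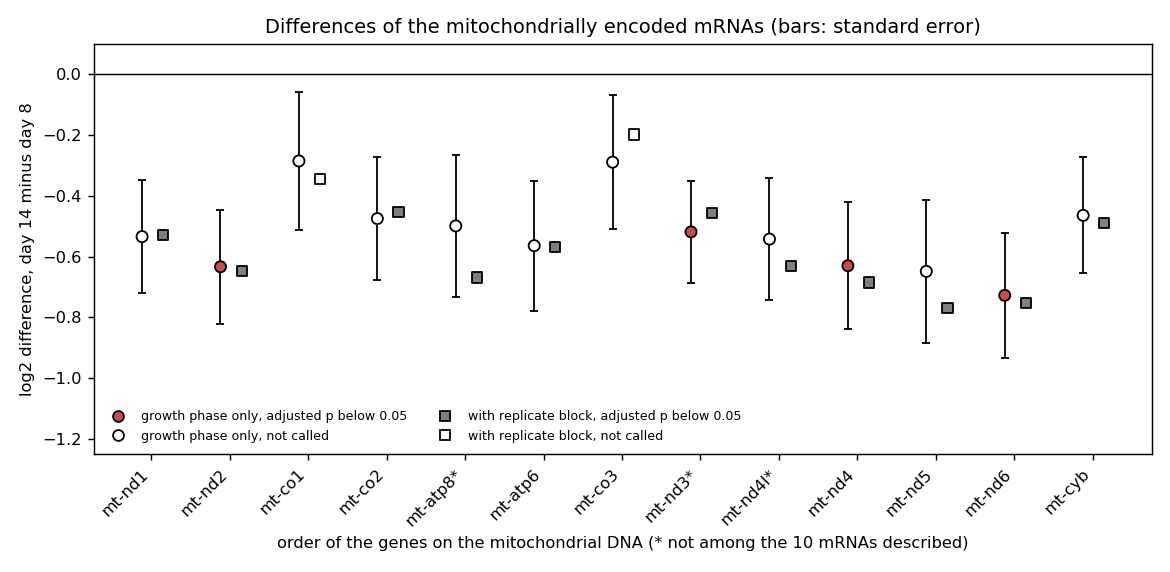
Log2 difference (day 14 minus day 8) of the 13 protein-coding genes of the mitochondrial DNA in their order. Circles with standard errors come from the edgeR fit with growth phase alone, squares from the fit that adds the replicate number, and filled symbols have an adjusted p below 0.05. The values nearest to 0 are those of mt-co1 and mt-co3, at -0.29 each, and the lowest circle is that of mt-nd6, at -0.73.

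The makeup of the mitochondrial mRNA counts does not depend on how libraries are scaled to each other. Counts grow with transcript length, which was not used here, so these percentages compare a gene between libraries and not genes with each other. The cytochrome c oxidase mRNAs took 70.0%, 71.2% and 72.3% of the counts of the 10 mRNAs in replicates 1, 2 and 4 of day 14, against 64.9%, 66.6%, 70.1% and 70.3% in replicates 1 to 4 of day 8. The share was higher on day 14 in all 3 pairs, but the days overlapped. The 5 NADH dehydrogenase mRNAs took 16.1%, 15.0% and 15.0% on day 14, against 19.5%, 18.5%, 15.9% and 16.3% on day 8, which was lower in all 3 pairs and again overlapped. For each of the 10 genes taken alone the percentages of the days overlapped. Within the pairs, 7 genes took a lower percentage on day 14 in all 3 (mt-atp6, mt-cyb and the 5 NADH dehydrogenase genes), and mt-co3 took a higher one in all 3.

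The day 8 libraries differed among themselves more in some mRNAs than in others. Relative to the mean log2 level of day 8, mt-nd5 was at 0.53 in replicate 1 and at -0.51 in replicate 3, a range of 1.04. For mt-co3 the order was turned round, with -0.19 in replicate 1 and 0.28 in replicate 3. The mRNA of mt-co2 varied least, over a range of 0.17. On day 14 the coefficient of variation was 4.21% for mt-nd6 and 5.80% for mt-nd5, against 28.8% and 31.1% on day 8. Over the 7 libraries, which also differ in depth and passage, the Pearson correlation of log2(CPM + 1) between 2 of the 10 mRNAs ran between 0.134 (mt-co3 with mt-nd5) and 0.985 (mt-nd4 with mt-nd6).

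Mitochondrial genes are copied, read and translated by proteins made from nuclear genes, and a list of such genes was examined beside the mRNAs. Of 65 matched genes, 32 fell on day 14 and 0 rose, while 13.3% of all genes were called lower and 12.0% higher. Their median log2 difference was -0.57, and 61 of the 65 values were negative. Without replicate 1 of day 14, 21 were called lower and 0 higher (11.0% and 9.84% of all genes). The mean of the list, relative to the day 8 mean, reached -0.56 to -0.45 in libraries of day 14 and -0.18 to 0.16 in those of day 8.

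Factors known from mammals to keep mitochondrial mRNAs stable were among those with the largest differences. So were genes of other groups given below, such as tbrg4 and gfm1. The stability and decay group had 5 of 8 genes lower (13.3% of all genes), with a median log2 difference of -0.83. The group also holds genes tied to decay. Of these, rexo2 fell (log2 difference -0.64, adjusted p = 0.0133), a call lost without replicate 1 of day 14. For supv3l1 the log2 difference was -0.51, not called without the block (adjusted p = 0.143) and called with it (adjusted p = 0.0250). The genes pde12 and angel2 were not called (adjusted p = 0.167 and 0.773). The mRNA of lrpprc (ENSDARG00000043970), whose product binds and protects mitochondrial mRNAs together with that of slirp, stood at 139, 114 and 95.7 CPM on day 14, against 282, 283, 222 and 191 CPM on day 8. On the log2 scale lrpprc differed by -1.07 with a standard error of 0.19 (adjusted p = 0.00188). The partner slirp had 27.7, 37.4 and 29.6 CPM on day 14, against 54.3, 59.3, 81.5 and 62.8 CPM on day 8 (log2 difference -1.03, adjusted p = 0.00171). The poly(A) polymerase of mitochondria, mtpap, had 7.73, 9.97 and 7.50 CPM on day 14, against 20.8, 19.9, 21.3 and 21.7 CPM on day 8, a difference on the log2 scale of -1.32 with a standard error of 0.17 (adjusted p = 2.87e-04). In these 3 genes the days did not overlap, and none of the 15 alternatives lost their calls. The libraries were made from poly(A)-selected RNA, and the poly(A) tails of the mitochondrial mRNAs were not measured.

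The genes that read and copy the mitochondrial DNA were mixed, and their calls are to be read against 13.3% of all genes called lower. The mitochondrial RNA polymerase polrmt had 12.1, 9.27 and 8.94 CPM on day 14, against 10.6, 13.4, 12.2 and 8.74 CPM on day 8, which overlapped (log2 difference -0.15, adjusted p = 0.613). The packaging and transcription factor tfam had 44.0, 47.2 and 38.5 CPM on day 14, against 48.1, 52.0, 67.8 and 51.7 CPM on day 8, which did not overlap but was not called (log2 difference -0.35, adjusted p = 0.140). In contrast, tfb2m, which helps the polymerase to open the promoter, fell (log2 difference -0.72, adjusted p = 0.00448). In this group of 8 genes, 3 fell, and tfb1m, which methylates the small ribosomal RNA, had the largest difference, with a log2 difference of -0.91 (adjusted p = 0.0167). That call was lost without replicate 2 or 4 of day 14 (adjusted p up to 0.0826). For copying of the DNA, 5 of 11 genes fell, among them the helicase twnk (log2 difference -1.08, adjusted p = 0.00275), while the polymerase polg was not called without the block (log2 difference -0.32, adjusted p = 0.196) and was called with it (adjusted p = 0.0319).

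For RNA processing and modification, 12 of 21 genes fell, against 13.3% of all genes, and all 21 log2 differences were negative. The largest was that of tbrg4, whose mammalian counterpart acts on the stability of mitochondrial RNAs, with -1.30 (adjusted p = 8.81e-04). The RNase Z enzyme elac2, which cuts behind the tRNAs, also fell (log2 difference -0.75, adjusted p = 0.00368). Of 17 genes listed as factors of mitochondrial translation, 7 fell, with the elongation factor gfm1 at a log2 difference of -1.29 (adjusted p = 4.07e-04). The calls of tbrg4, elac2 and gfm1 were kept in all 15 alternatives. The 17 include mief1, which is known for mitochondrial fission rather than translation and was not called (log2 difference -0.21, adjusted p = 0.349).

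**Figure D4:**
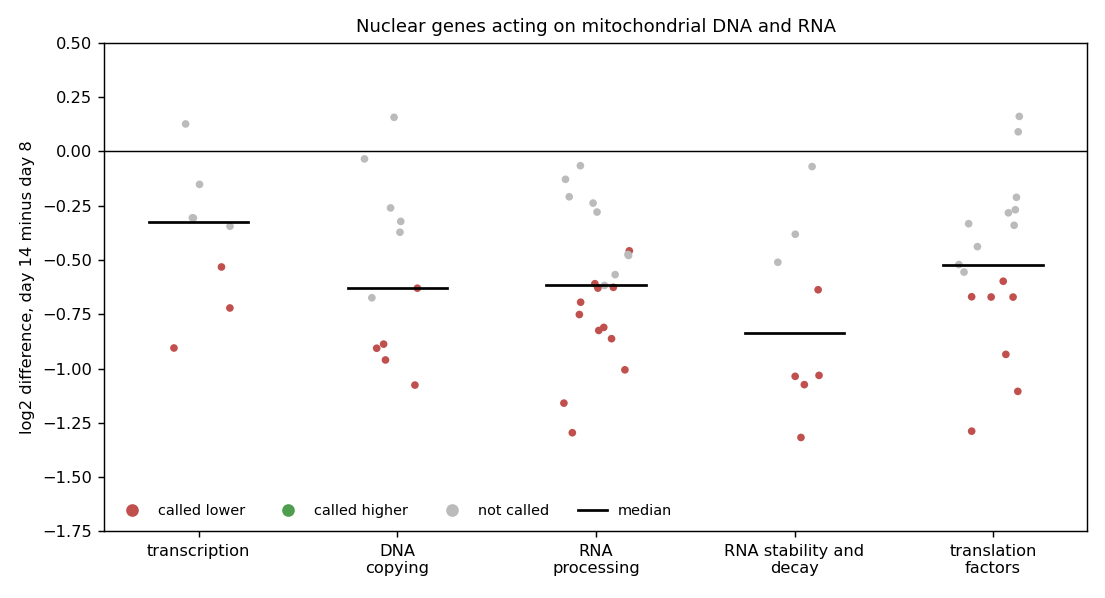
Log2 difference (day 14 minus day 8) of 65 nuclear genes listed as acting on mitochondrial DNA and RNA, by role. Each point is a gene, coloured by its edgeR call at an adjusted p below 0.05, and lines mark the median of each group. The medians lie between -0.33 for transcription and -0.83 for RNA stability and decay, 32 genes were called lower, and 0 higher.

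The nuclear-encoded subunits of complexes I to V had 15 calls lower and 2 higher among 89 matched genes. This is to be read against 13.3% lower and 12.0% higher for all genes. With the replicate block 25 were lower and 5 higher, against 18.9% and 17.7% of all genes. The total of 17 calls became 10, 6 and 5 without replicates 1, 2 and 4 of day 14 (20.8%, 15.5% and 15.1% of all genes called), and 38 without replicate 1 of day 8 (26.6%). Their median log2 difference was -0.40, but -0.19 with the block and -0.17 without replicate 3 of day 8, which has no partner on day 14. Within the pairs their mean log2 level differed by -0.037, -0.014 and -0.41 (replicates 1, 2 and 4), and that of the 10 mitochondrial mRNAs by -0.90, -0.48 and -0.25. The median of these 10 was -0.55 with and without the block. In complex I, 5 of 37 nuclear-encoded subunits fell and the median was -0.37, while the median of the 7 mitochondrially encoded subunits was -0.63. With the block these medians were -0.16 and -0.65. The acyl carrier protein gene ndufab1 had the largest called difference (log2 difference -0.97, adjusted p = 0.00619). A second such gene, ndufab1b, had a higher day 8 mean (103 against 52.0 CPM) and was not called (log2 difference -0.52, adjusted p = 0.127). In complex III, 2 of 9 fell and the median of -0.46 equalled the value of mt-cyb, while with the block the median was -0.29 and mt-cyb was at -0.49. The heme-bearing subunit cyc1 fell by 0.89 on the log2 scale (adjusted p = 0.00414).

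In complex IV, 3 of 20 genes listed for nuclear-encoded subunits fell and 1 rose (13.3% and 12.0% of all genes). These genes include repeated entries named cox5b, cox6a1 and cox7a2. They also include weakly expressed forms such as ndufa4l2 (means of 0.441 CPM on day 14 and 0.906 CPM on day 8). The median of the 20 was -0.46, while mt-co1 and mt-co3 stood at -0.29. The block turned this order, with a nuclear median of -0.15 and with mt-co1 at -0.34, mt-co2 at -0.45 and mt-co3 at -0.20. The gene that rose was cox4i2, an alternative form of subunit 4, with 6.45 CPM on day 14 and 1.99 CPM on day 8 (means, log2 difference 1.70, adjusted p = 0.00275). In complex V, 4 of 18 fell, the median was -0.42 (-0.17 with the block), and atp5mc1, a subunit of the rotating ring, had the largest difference, with a log2 difference of -0.80 (adjusted p = 0.0106). That call was lost without replicate 4 of day 14 (adjusted p = 0.0653). Complex II has no mitochondrially encoded subunit. Of its 5 matched genes 1 fell (sdha) and 1 rose (sdhb), with log2 differences of -0.63 (adjusted p = 0.0133) and 0.49 (adjusted p = 0.0370). The call of sdha was lost without replicate 2 or 4 of day 14, and that of sdhb without TMM scaling and in 6 of the 7 fits that left out a library.

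**Figure D5:**
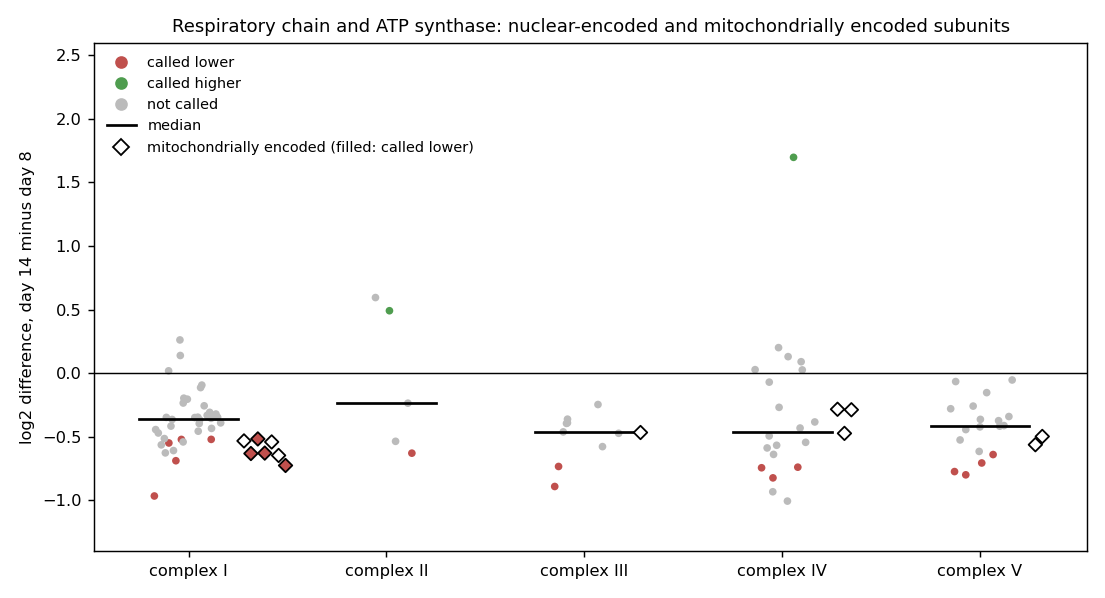
Log2 difference (day 14 minus day 8) of nuclear-encoded subunits (points, with the median as a line) and mitochondrially encoded subunits (diamonds) of the 5 complexes. Points are coloured by their edgeR call, and filled diamonds were called lower. In complex I the 7 diamonds lie between -0.73 and -0.52, below the nuclear median of -0.37, and in complex IV 2 of the 3 diamonds lie above the nuclear median of -0.46. All values plotted are from the fit without the replicate block, which moves the nuclear medians of complexes I and IV to -0.16 and -0.15, with all 3 mitochondrial values of complex IV below its median.

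The nuclear-encoded and the mitochondrial mRNAs were ordered differently over the day 8 libraries. Relative to the day 8 mean, the mean log2 level of the 89 nuclear-encoded subunits was -0.43, -0.18, 0.49 and 0.12 in replicates 1 to 4, while that of the 10 mitochondrial mRNAs was 0.26, 0.073, -0.10 and -0.23. The library with the highest mitochondrial level thus had the lowest nuclear-encoded level. On day 14 the nuclear-encoded subunits were at -0.47, -0.19 and -0.30 in replicates 1, 2 and 4, the first just below and the others within the range of day 8, and the mitochondrial mRNAs were at -0.64, -0.41 and -0.47, below all day 8 libraries.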

How the data were processed

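The 7 poly(A)-selected RNA libraries (3 of day 14, 4 of day 8) were grouped by their labels. The authors pseudo-aligned reads with Kallisto (Ensembl transcripts of GRCz11), added transcripts up per gene and dropped weakly expressed genes with edgeR (version 4.6.2 per the labels). The deposited estimated counts of 17570 genes were not scaled between libraries, whatever the title of the matrix says. Transcript lengths and sequences were not used here.

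Whole-number counts after rounding went into edgeR 4.0.16 under R 4.3.3 (TMM scaling, glmQLFit with robust estimation, glmQLFTest, growth phase as the only term, calls at an adjusted p below 0.05). Each standard error is the log2 difference over the square root of F. CPM values use the TMM-scaled library size (factors 0.883 to 1.15). DESeq2 1.42.0 served for comparison. The fits were also run on simulated data, but no outcome of that run is given and no conclusion is drawn from it. Plots used matplotlib 3.10.9 (Python 3.11.15).

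Replicate numbers come from the run numbers in the labels, and the passages and starting days from the study's methods. Deviations from the mean of each day correlated across genes by 0.324, -0.132 and 0.407 in replicates 1, 2 and 4. Between libraries of unequal number the correlations ran from -0.357 to 0.371. Replicate 1 of day 14 correlated most with replicate 2 of day 8 (0.371), and replicate 2 of day 14 with replicate 3 of day 8 (0.180). Only replicate 4 of day 14 correlated most with the day 8 library of its own number. The block was an alternative, as the study's design has none. No 2 libraries were alike within counting noise (lowest chi-square per degree of freedom 14.0), and each counts once.

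The 10 mRNAs and the gene lists were chosen with earlier results of these data known. Named were all protein-coding genes of the mitochondrial DNA and set names from the lists (tfam, polrmt, tfb2m, lrpprc, slirp, mtpap and polg). The called gene with the largest difference of each group or complex and all matched biogenesis regulators were named too. So were the 5 other genes with the highest correlation to the 10 mRNAs. The genes elac2, sdhb, rexo2, supv3l1, pde12 and angel2 were added after their values were seen. So were genes named only for the makeup of a list, and the genes of import, folding, the outer membrane and metabolism among the closing observations. Other scalings, a filter on low counts, other tools, the block and the omission of each library were tried as alternatives.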

Additional observations from a re-analysis of the deposited data

How the results depend on the processing

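In each of the 15 alternatives all 10 log2 differences stayed negative. The number of called mRNAs, 3 in edgeR's fit, was 8 without TMM scaling, 8 with DESeq2, 8 with the replicate block, and 10 with the block and no TMM scaling together, an alternative chosen after seeing the data, in which 31.3% of all genes were called lower, 10.4% higher and the median of all genes was -0.23. It was 0 to 5 with a library left out. The median of -0.55 was -0.78 with the block and no TMM scaling. Removing TMM scaling alone moved the median of all genes to -0.17 and that of the 10 mRNAs to -0.74, so that their distance from all genes was -0.57, against -0.55 with TMM, and the calls over all genes went to 3258 lower and 1218 higher, against 2344 lower and 2101 higher. The call of mt-nd2 was lost in 4, of mt-nd4 in 5 and of mt-nd6 in 3 of the 15 alternatives (highest adjusted p 0.0962, 0.131 and 0.0775), each of them the omission of a library. The nuclear-encoded subunits had 17 calls, which became 40 without TMM scaling, 26 with DESeq2, 30 with the replicate block, 59 (57 lower, 2 higher) with the block and no TMM scaling, and 5 to 38 with a library left out. The genes listed as acting on mitochondrial DNA and RNA had 32 calls, and 21 to 35 with a library left out. The cause of these changes was not tested. The difference in the share of counts was -1.08 to -0.74 percentage points with a library left out, -1.08 within replicate numbers and -0.64 on TMM-scaled library sizes. The gain in the percentage of cytochrome c oxidase mRNAs was 3.22 percentage points, and 2.20 to 4.00 with a library left out. Counts per kilobase were not run, as no lengths were used. Depth does not limit the 10 mRNAs, but it limits genes near 1 CPM, where 1 count is 0.0300 to 0.0773 CPM.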

Other observations

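Nuclear regulators of mitochondrial biogenesis differed in their calls. The coactivators pprc1 and ppargc1b, which in mammals raise the transcription of nuclear genes for mitochondria, fell, with log2 differences of -1.49 (edgeR, adjusted p = 3.81e-04) and -1.02 (adjusted p = 0.00191). The other 5 of the 7 matched regulators, ppargc1a included, were not called, while 13.3% of all genes were called lower and 12.0% higher. They were the transcription factors nrf1 (0.21, adjusted p = 0.298) and gabpa (0.059, adjusted p = 0.823), its partner gabpb1 (0.47, adjusted p = 0.351), the receptor esrra (-0.25, adjusted p = 0.471) and ppargc1a itself (0.17, adjusted p = 0.573), each given as a log2 difference.

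Genes for mitochondrial proteins of import, folding, the outer membrane and metabolism were mixed as well. Of 10 matched genes, 4 fell and 0 rose, the fourth being the porin vdac2 (log2 difference -0.49, edgeR, adjusted p = 0.0487), while 13.3% of all genes were called lower. The call of vdac2 was lost in 6 of the 15 alternatives, each the omission of a library. With the replicate block 6 fell and 1 rose (18.9% and 17.7% of all genes), where the added calls were cs and timm23a lower and timm23b higher. The level of timm23b was low, with means of 0.986 CPM on day 14 and 0.358 CPM on day 8 (edgeR with block, adjusted p = 0.0486). The import receptor tomm20a (log2 difference -1.07, edgeR, adjusted p = 0.00105), the chaperonin hspd1 (-1.14, adjusted p = 9.07e-04) and the outer membrane assembly protein samm50 (-0.95, adjusted p = 9.98e-04) fell, and none of the 15 alternatives lost these 3 calls. The porins vdac1 and vdac3 had log2 differences of -0.20 and 0.0099 and were not called (adjusted p = 0.375 and 0.972), nor was citrate synthase, cs (-0.27, adjusted p = 0.236).

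The 5 other genes whose log2(CPM + 1) followed the mean of the 10 mRNAs most closely over the 7 libraries were ENSDARG00000109391, bmp7a, ENSDARG00000114516, smad10b and si:dkey-90l23.2, with Pearson correlations of 0.974 to 0.989 among 15705 genes compared. None of them was called between the days by edgeR (unadjusted p under 0.05 in 4 of the 5), and with the replicate block si:dkey-90l23.2 was (adjusted p = 0.0433). Of these, ENSDARG00000109391, bmp7a and ENSDARG00000114516 had low means, 0.777 to 1.25 CPM on day 14 and 1.26 to 2.05 CPM on day 8. The correlation is a description of 7 libraries that also differ in depth and passage, and the 5 genes were picked as the highest of 15705.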
